A study of Mus musculus with 30 samples.

Results

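The genes described here encode 3 superfamilies of phase II conjugating enzymes, the glutathione S-transferases (*Gst*), the UDP-glycosyltransferases (*Ugt*) and the cytosolic sulfotransferases (*Sult*). Members were chosen by symbol alone, as every annotated transcript cluster (the set of array probes for 1 gene) named *Gsta*, *Gstk*, *Gstm*, *Gsto*, *Gstp*, *Gstt*, *Gstz*, *Ugt1a*, *Ugt2a*, *Ugt2b*, *Ugt3a* or *Sult* with its number, apart from *Sult1a1* and *Sult1c2*. This gave 50 of the 22139 genes tested, namely 21 *Gst*, 19 *Sult* and 10 *Ugt* genes, each with 1 transcript cluster. *Ugt1a* genes were not analysed here.

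Kidney RNA was measured on 30 Clariom S mouse arrays, 1 for each C57BL/6 male mouse of 9 to 11 weeks. The 6 groups of 5 mice were *Trp53(-/-)*, *Trp53(+/-)* and *Trp53(+/+)* mice given either 3.5 mg/kg bw aristolochic acid I (AAI), the nephrotoxic and carcinogenic plant compound, or water, by intraperitoneal injection daily for 6 days. Kidneys were taken 24 h after the last injection. *Trp53(-/-)* mice carry a neomycin cassette in both copies of the gene and make no p53 protein anywhere in the body, *Trp53(+/-)* mice carry it in 1 copy and *Trp53(+/+)* mice in neither. The question was which members AAI moved in each genotype and whether that effect differed between genotypes.

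Phase II enzymes attach a polar group to a drug, toxin, steroid or bile acid, so that transporters can carry the product out into urine or bile. Glutathione S-transferases couple glutathione to electrophiles, UDP-glycosyltransferases of the endoplasmic reticulum transfer a sugar from a UDP-sugar, and sulfotransferases transfer sulfate from PAPS. In the kidney many of these enzymes, though not all, are found in the proximal tubule, the nephron segment that AAI injures.

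The members that fell most with AAI included 3 neighbouring *Ugt2b* genes on chromosome 5, whose sequences before the transcript start are shown because they resemble each other. The windows hold 250 bases before the annotated start (RefSeq, GRCm38.p6, all 5′ to 3′ on the gene's strand). They are chr5:87424204-87424453 for *Ugt2b38*, chr5:87254789-87255038 for *Ugt2b37*, chr5:87140341-87140590 for *Ugt2b5*, chr5:87092556-87092805 for the neighbour *Ugt2b36* and chr5:87569007-87569256 for *Sult1d1*, all on the minus strand. For *Ugt3a1*, a member of another chromosome with a similar fall, the window is chr15:9279579-9279828 on the plus strand. Capitals mark matches, on either strand, to TTAATNATT, a core of the binding sequence of the tubule factor HNF1, and to AAAGGTCA, a half-site of nuclear receptors such as HNF4.
Ugt2b38: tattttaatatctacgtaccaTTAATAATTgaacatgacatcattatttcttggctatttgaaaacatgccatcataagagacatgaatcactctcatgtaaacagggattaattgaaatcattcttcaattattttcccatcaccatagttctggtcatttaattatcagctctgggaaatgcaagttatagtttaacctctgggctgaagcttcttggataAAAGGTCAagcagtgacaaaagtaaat
Ugt2b37: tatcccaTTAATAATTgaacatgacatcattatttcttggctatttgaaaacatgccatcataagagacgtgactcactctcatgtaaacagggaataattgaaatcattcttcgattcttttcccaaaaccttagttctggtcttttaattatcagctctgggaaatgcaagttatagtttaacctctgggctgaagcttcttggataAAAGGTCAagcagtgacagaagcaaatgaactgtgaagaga
Ugt2b5: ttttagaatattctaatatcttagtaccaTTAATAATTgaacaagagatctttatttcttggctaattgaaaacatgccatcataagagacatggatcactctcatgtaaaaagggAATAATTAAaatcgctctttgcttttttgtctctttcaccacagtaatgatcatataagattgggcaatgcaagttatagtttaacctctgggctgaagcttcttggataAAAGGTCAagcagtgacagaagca
Ugt2b36: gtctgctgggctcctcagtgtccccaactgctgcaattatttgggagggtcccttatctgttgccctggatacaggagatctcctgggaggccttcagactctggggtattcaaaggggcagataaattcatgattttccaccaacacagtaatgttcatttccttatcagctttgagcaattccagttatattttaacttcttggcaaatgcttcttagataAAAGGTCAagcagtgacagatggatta
Sult1d1: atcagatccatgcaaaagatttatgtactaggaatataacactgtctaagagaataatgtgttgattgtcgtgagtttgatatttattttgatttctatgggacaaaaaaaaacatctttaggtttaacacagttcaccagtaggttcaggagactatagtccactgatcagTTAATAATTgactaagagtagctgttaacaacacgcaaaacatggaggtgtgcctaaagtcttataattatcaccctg
Ugt3a1: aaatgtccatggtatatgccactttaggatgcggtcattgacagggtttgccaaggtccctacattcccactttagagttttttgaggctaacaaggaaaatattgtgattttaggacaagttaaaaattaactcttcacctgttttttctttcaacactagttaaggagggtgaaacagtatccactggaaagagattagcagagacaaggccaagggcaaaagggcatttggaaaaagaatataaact
Aligned end to end, the windows of *Ugt2b38* and *Ugt2b37* were 84.8% identical, those of *Ugt2b38* and *Ugt2b5* 81.5% and those of *Ugt2b37* and *Ugt2b5* 72.6%. *Ugt2b36*, *Ugt2b35*, *Ugt2b34* and *Ugt2b1* were 60.8%, 54.3%, 49.3% and 47.4% identical to *Ugt2b38*. Of these only *Ugt2b36* fell with all arrays, in *Trp53(+/+)* kidneys. *Sult1d1*, which fell in every genotype, was 44.1% identical to *Ugt2b38* and at most 48.1% identical to any *Ugt2b* window. Identities near that range are therefore not read as resemblance. TTAATNATT was present in 9 of the 43 members with a window, against 1.64% of all 27025 genes with one. The 9 were *Ugt2b38*, *Ugt2b37*, *Ugt2b5* and *Sult1d1*, which fell with AAI in every genotype, and *Ugt2b35*, *Sult2a3*, *Sult2a4*, *Sult2a5* and *Sult2a6*, which passed in none. AAAGGTCA was present in 5 members (*Ugt2b38*, *Ugt2b37*, *Ugt2b5*, *Ugt2b36* and *Sult2a8*), against 1.55% of all genes. TGACNNNGC, the core of the antioxidant response element, was present in 3 members (*Gsta3*, *Gstm5* and *Gstm7*), against 11.5% of all genes. No 2 of these matches overlap, the letters were chosen after these windows had been read, and a match is a match of letters and not a measured binding site.

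Values are log2 signals, on which 1 unit equals 2-fold, and the level of 1 gene was never set against that of another. A member was said to rise or fall at a limma p, adjusted by the Benjamini-Hochberg method over all 22139 genes of the comparison, under 0.05. Of the 50 members 28 had a mean signal of at least 5 and 22 a lower one. Of the dim members 3 passed the test for AAI in some genotype and 19 did not, whereas 18 of the brighter ones passed and 10 did not.

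*Trp53(+/+)* water replicate 1 stood apart from its group in this set of genes. It lay over 1 log2 unit from the mean of the other 4 arrays in 8 members (*Gsta2*, *Gsta4*, *Gstp1*, *Gstp3*, *Ugt2b34*, *Ugt2b37*, *Ugt2b38* and *Ugt3a1*), against 0 to 4 members in the other 29 arrays. Its signal of *Havcr1*, the gene of the injury marker KIM-1, was 10.75, against 5.33 to 6.66 in the other 4 controls of that genotype, whereas *Lcn2*, another injury marker, was 5.13, against 3.99 to 5.31. Over all genes it was not extreme, with 154 genes off by over 1 log2 unit, against 13 to 241 in the other arrays. Where leaving it out changed the call of a member, the value without it is given too.

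Samples were grouped into batches during cDNA synthesis. By the study's own heat map the *Trp53(-/-)* arrays of both treatments lay in 1 batch, the *Trp53(+/-)* AAI arrays and the *Trp53(+/-)* controls lay in different batches, and all but 1 of the *Trp53(+/+)* AAI arrays shared a batch with their controls. In *Trp53(+/-)* kidneys, AAI and batch therefore cannot be told apart, nor can genotype and batch between the *Trp53(-/-)* or *Trp53(+/-)* controls and the *Trp53(+/+)* controls.

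Members of all 3 superfamilies fell with AAI. The furthest falls were those of *Ugt2b38*, *Ugt3a1*, *Ugt2b37*, *Ugt3a2* and *Ugt2b5*, by up to 10.1-fold in *Trp53(-/-)* kidneys. In *Trp53(-/-)* kidneys 14 of the 50 members fell, where 10.9% of all genes fell, and 2 rose, where 15.5% of all genes rose. In *Trp53(+/-)* kidneys 9 members fell, where 3.81% of all genes fell, and 0 rose, where 3.53% of all genes rose. At an unadjusted limma p under 0.05, which 15.7% of all genes met, the same 9 members passed and none of them was higher, while 1 member rose in a fit of only those 10 arrays. In *Trp53(+/+)* kidneys 13 members fell, where 12% of all genes fell, and 3 rose, where 15.2% of all genes rose. The median log2 change of the members was -0.19, -0.03 and -0.15 in *Trp53(-/-)*, *Trp53(+/-)* and *Trp53(+/+)* kidneys, against -0.01, 0.00 and -0.03 over all genes, so that most members moved little and a minority fell far. A fall of at least 2-fold was seen in 9, 6 and 9 members of the 3 genotypes in the same order, where 2.83%, 0.79% and 2.67% of all genes fell as far, and no member rose 2-fold in any, where 3.33% of all genes did for *Trp53(-/-)*, 0.7% for *Trp53(+/-)* and 3.37% for *Trp53(+/+)*.

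**Figure D1:**
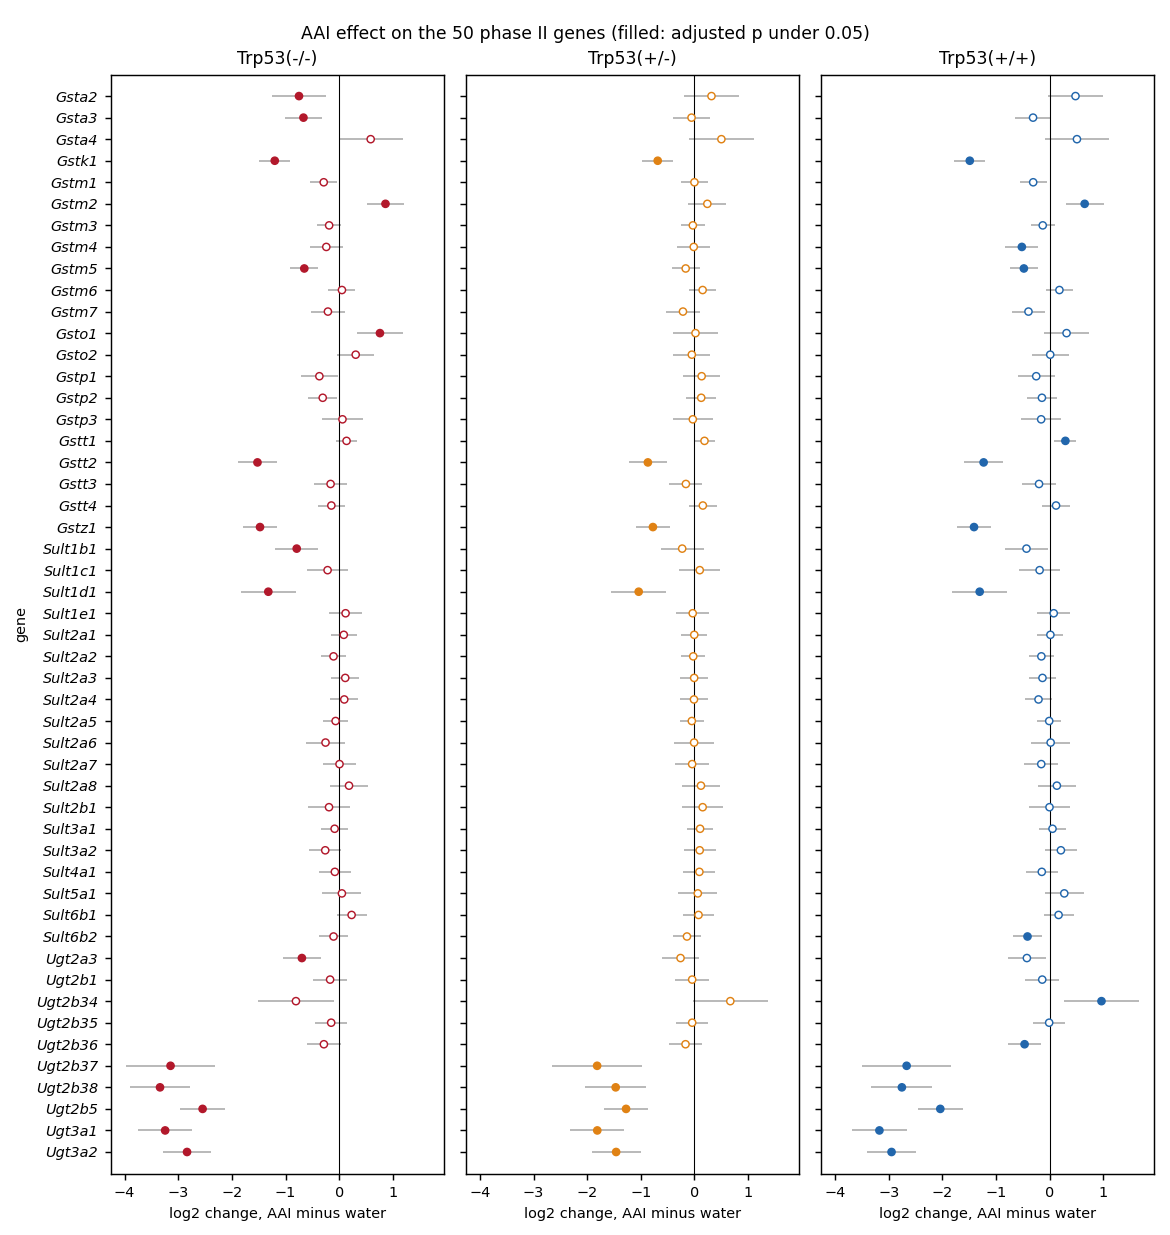
Log2 change with AAI (AAI minus water, 5 arrays a group) of the 50 members in *Trp53(-/-)*, *Trp53(+/-)* and *Trp53(+/+)* kidneys, with points for the estimates, lines for 95% intervals and filled points for an adjusted p under 0.05. The 9 members at the far left of the *Trp53(-/-)* panel, between -1.20 and -3.34, are also filled in the other panels, and the *Sult2* genes sit near 0 throughout.

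The same 9 members fell at least 2-fold in *Trp53(-/-)* and in *Trp53(+/+)* kidneys and passed the test in *Trp53(+/-)* kidneys as well. They were *Ugt2b38*, *Ugt2b37*, *Ugt2b5*, *Ugt3a1*, *Ugt3a2*, *Sult1d1*, *Gstt2*, *Gstk1* and *Gstz1*. Between *Trp53(-/-)* and *Trp53(+/+)* kidneys 10 fallen members were shared, which is 71.4% of those in *Trp53(-/-)* and 76.9% of those in *Trp53(+/+)* kidneys, and the tenth was *Gstm5*. In all 9 the change was smallest in *Trp53(+/-)* kidneys.

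*Ugt2b38*, one of the glucuronosyltransferases of the *Ugt2b* cluster, had 7.93, 7.70, 7.09, 8.17 and 8.45 in *Trp53(-/-)* AAI kidneys, against 11.13, 11.38, 11.05, 11.33 and 11.15 in *Trp53(-/-)* controls. Its signal in *Trp53(+/-)* mice was 10.15, 9.42, 9.55, 9.98 and 9.78 with AAI, against 11.04, 11.46, 11.11, 11.26 and 11.35 with water. Its signal in *Trp53(+/+)* mice was 7.71, 9.79, 9.29, 8.05 and 8.91 with AAI, against 10.56, 11.67, 11.73, 11.81 and 11.75 with water. Every AAI array lay below every control of its genotype, and the control at 10.56 was replicate 1. The fall was 10.1-fold in *Trp53(-/-)* (log2 -3.34, SE 0.28, adjusted p = 5.3e-11), 2.77-fold in *Trp53(+/-)* (adjusted p = 0.000654) and 6.75-fold in *Trp53(+/+)* kidneys (adjusted p = 2.19e-09).

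*Ugt2b37*, its neighbour, had 4.78, 3.89, 3.90, 4.15 and 4.07 in *Trp53(-/-)* AAI kidneys, against 7.30, 7.83, 6.79, 7.58 and 7.01 in controls. *Trp53(+/-)* arrays read 5.04, 5.12, 5.51, 6.04 and 6.31 with AAI, against 7.25, 7.51, 7.35, 7.20 and 7.77 with water. *Trp53(+/+)* arrays read 3.81, 6.36, 5.76, 4.58 and 4.49 with AAI, against 5.57, 8.11, 8.33, 7.87 and 8.46 with water. Only the *Trp53(+/+)* groups overlapped, through control replicate 1 at 5.57. The fall was 8.84-fold in *Trp53(-/-)* (adjusted p = 2.79e-07), 3.52-fold in *Trp53(+/-)* (adjusted p = 0.00352) and 6.35-fold in *Trp53(+/+)* kidneys (log2 -2.67, adjusted p = 4.79e-06), and the last was -3.19 on the log2 scale without that array (adjusted p = 7.03e-09).

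*Ugt2b5*, the third of these neighbours, had 3.46, 3.18, 2.83, 3.86 and 3.63 in *Trp53(-/-)* AAI kidneys, against 5.61, 6.45, 5.58, 5.96 and 6.08 in controls. The *Trp53(+/-)* groups measured 5.27, 4.97, 4.92, 5.38 and 4.68 with AAI, against 6.13, 6.58, 6.36, 6.17 and 6.37 with water. The *Trp53(+/+)* groups measured 4.12, 5.09, 5.07, 4.29 and 4.21 with AAI, against 6.19, 7.03, 6.58, 6.45 and 6.73 with water. No AAI array reached a control of its genotype, and the *Trp53(+/-)* AAI arrays lay nearest to theirs. The fall was 5.84-fold in *Trp53(-/-)*, 2.42-fold in *Trp53(+/-)* and 4.11-fold in *Trp53(+/+)* kidneys (adjusted p = 2.7e-11, 0.000105 and 1.8e-09). Within groups *Ugt2b38* deviated together with *Ugt2b37* (r = 0.75) and *Ugt2b5* (r = 0.75), and also with *Ugt3a2* of another chromosome (r = 0.78). Whether probes of these *Ugt2b* genes share signal was not tested.

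The 2 *Ugt3a* genes, which in humans encode enzymes that use UDP-sugars other than UDP-glucuronic acid, fell as far. *Ugt3a1* had 5.36, 5.69, 4.71, 5.22 and 4.53 in *Trp53(-/-)* AAI kidneys, against 7.90, 8.39, 8.34, 8.48 and 8.63 in controls. Signals in *Trp53(+/-)* kidneys were 6.87, 6.48, 7.15, 6.77 and 6.35 with AAI, against 8.44, 8.60, 8.72, 8.44 and 8.49 with water. Signals in *Trp53(+/+)* kidneys were 4.97, 5.82, 6.35, 6.00 and 5.96 with AAI, against 7.86, 9.58, 9.19, 9.17 and 9.15 with water. The groups stayed apart in each genotype, and the lowest *Trp53(+/+)* control was again replicate 1. The fall was 9.48-fold in *Trp53(-/-)*, 3.51-fold in *Trp53(+/-)* and 9.02-fold in *Trp53(+/+)* kidneys (adjusted p = 1.2e-11, 2.13e-05 and 1.55e-11).

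*Ugt3a2* had 8.79, 8.66, 8.30, 8.89 and 8.42 in *Trp53(-/-)* AAI kidneys, against 11.34, 11.54, 11.36, 11.56 and 11.43 in controls. Its signal in *Trp53(+/-)* mice was 10.51, 9.32, 10.41, 9.97 and 9.67 with AAI, against 11.30, 11.46, 11.50, 11.47 and 11.45 with water. Its signal in *Trp53(+/+)* mice was 8.03, 9.52, 9.25, 8.03 and 9.04 with AAI, against 11.27, 11.84, 11.94, 11.72 and 11.84 with water. The *Trp53(+/-)* AAI arrays all lay between the controls and most AAI arrays of the other genotypes. The fall was 7.15-fold in *Trp53(-/-)*, 2.75-fold in *Trp53(+/-)* and 7.71-fold in *Trp53(+/+)* kidneys (adjusted p = 1.84e-11, 6.62e-05 and 8.88e-12).

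*Sult1d1*, known in rodents as a sulfotransferase of catecholamines and eicosanoids, had 9.58, 9.96, 9.92, 10.71 and 9.79 in *Trp53(-/-)* AAI kidneys, against 11.01, 11.34, 11.31, 11.49 and 11.44 in controls. *Trp53(+/-)* arrays read 10.61, 10.04, 10.85, 9.62 and 9.49 with AAI, against 10.99, 11.34, 11.21, 11.06 and 11.19 with water. *Trp53(+/+)* arrays read 9.23, 9.85, 9.98, 10.95 and 10.89 with AAI, against 11.38, 11.56, 11.63, 11.43 and 11.42 with water. The AAI arrays were spread widely in each genotype but stayed below the controls. The fall was 2.50-fold in *Trp53(-/-)*, 2.06-fold in *Trp53(+/-)* and 2.47-fold in *Trp53(+/+)* kidneys (adjusted p = 0.000103, 0.00635 and 0.000124).

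Of the *Gst* genes, 3 from single-gene or small classes fell in every genotype. *Gstt2*, a theta class enzyme, had 6.28, 6.17, 6.27, 7.03 and 6.25 in *Trp53(-/-)* AAI kidneys, against 7.39, 8.16, 8.11, 8.19 and 7.78 in controls. The *Trp53(+/-)* groups measured 7.49, 6.93, 6.79, 7.25 and 6.88 with AAI, against 7.84, 7.66, 7.93, 8.04 and 8.21 with water. The *Trp53(+/+)* groups measured 6.52, 6.96, 7.09, 6.99 and 7.14 with AAI, against 7.83, 8.49, 8.44, 7.86 and 8.22 with water. No groups of 1 genotype overlapped, and 1 *Trp53(-/-)* AAI array lay well above the other 4. The fall was 2.88-fold in *Trp53(-/-)*, 1.83-fold in *Trp53(+/-)* and 2.35-fold in *Trp53(+/+)* kidneys (adjusted p = 3.32e-08, 0.00141 and 1.61e-06).

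*Gstk1*, the kappa class enzyme of mitochondria and peroxisomes, had 7.47, 7.19, 7.33, 7.92 and 7.92 in *Trp53(-/-)* AAI kidneys, against 8.63, 8.77, 8.92, 8.69 and 8.84 in controls. Signals in *Trp53(+/-)* kidneys were 8.39, 8.16, 8.45, 8.22 and 7.90 with AAI, against 8.90, 8.98, 8.96, 8.91 and 8.81 with water. Signals in *Trp53(+/+)* kidneys were 7.26, 7.95, 7.83, 7.88 and 7.50 with AAI, against 8.86, 9.01, 9.26, 9.32 and 9.41 with water. AAI and control arrays were separate in each genotype. The fall was 2.30-fold in *Trp53(-/-)*, 1.61-fold in *Trp53(+/-)* and 2.81-fold in *Trp53(+/+)* kidneys (adjusted p = 5.12e-08, 0.00176 and 7.53e-10).

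*Gstz1*, which isomerises maleylacetoacetate in tyrosine breakdown, had 6.93, 7.04, 6.43, 7.16 and 7.73 in *Trp53(-/-)* AAI kidneys, against 8.44, 8.69, 8.48, 8.50 and 8.56 in controls. Its signal in *Trp53(+/-)* mice was 7.94, 7.69, 7.90, 7.70 and 7.52 with AAI, against 8.45, 8.47, 8.58, 8.50 and 8.62 with water. Its signal in *Trp53(+/+)* mice was 7.02, 7.49, 7.52, 7.57 and 7.80 with AAI, against 8.65, 8.97, 9.04, 8.98 and 8.81 with water. The arrays were separate in each genotype here too. The fall was 2.78-fold in *Trp53(-/-)*, 1.71-fold in *Trp53(+/-)* and 2.66-fold in *Trp53(+/+)* kidneys (adjusted p = 3.11e-09, 0.00094 and 7.74e-09).

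**Figure D2:**
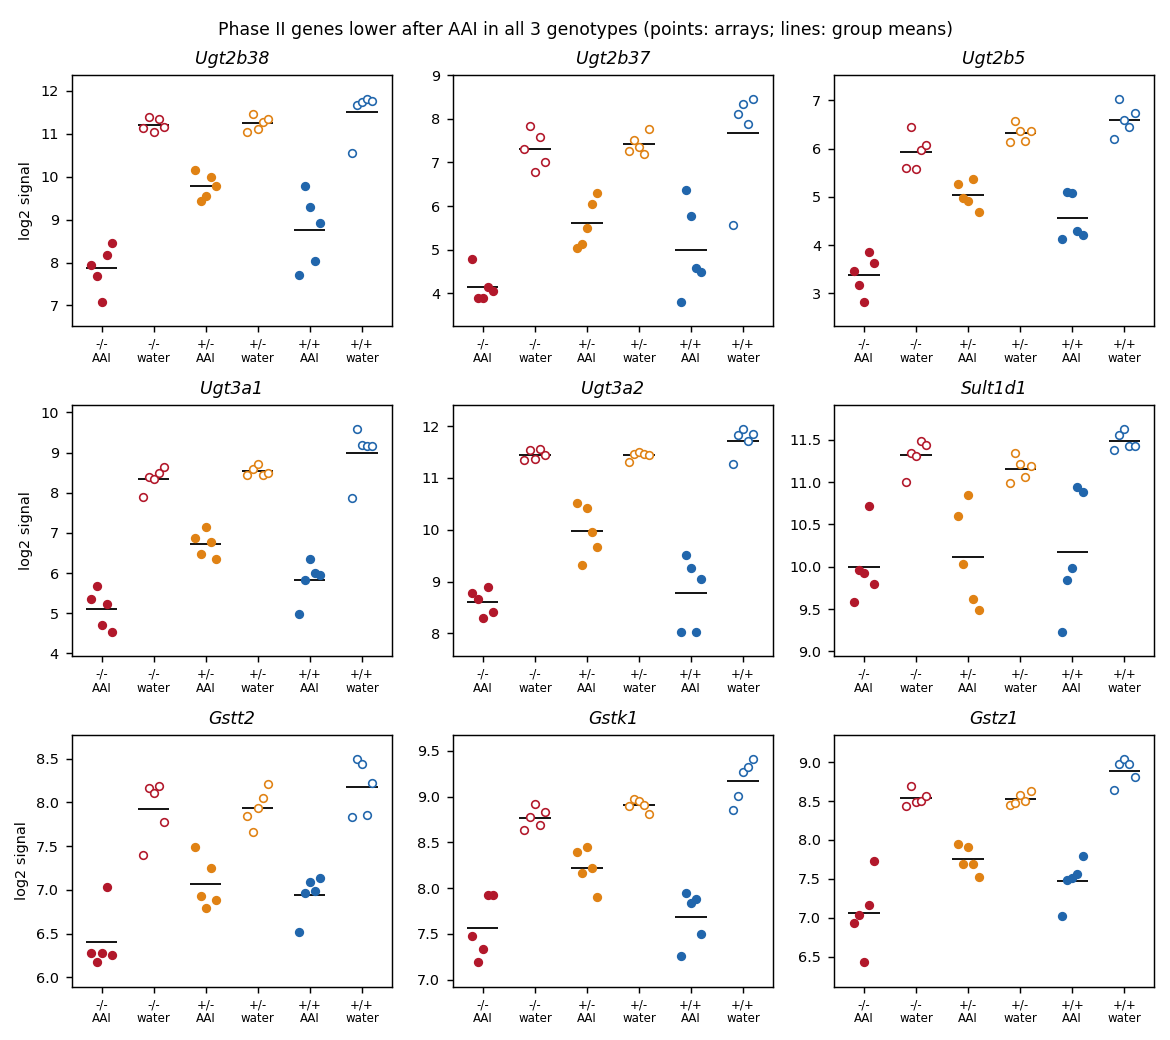
Log2 signal of the 9 members that fell with AAI in all 3 genotypes, with 1 point per array, filled for AAI and open for water, and lines at the group means (n = 5). AAI arrays lie below the controls of their genotype in every panel except *Ugt2b37* in *Trp53(+/+)* kidneys, where 1 control sits at 5.57.

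Counting arrays, 11 members had every *Trp53(-/-)* AAI array below every control and 2 had every one above, where 7.63% and 10.5% of all genes did. In *Trp53(+/-)* kidneys 9 members lay below and 0 above, where 4.26% and 4.09% of all genes did. In *Trp53(+/+)* kidneys 8 lay below and 1 above, where 8.11% and 9.71% of all genes did.

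The loss was not shared by the whole of a gene cluster. On chromosome 5 the members follow each other in the order *Ugt2b34*, *Ugt2b1*, *Ugt2b35*, *Ugt2b36*, *Ugt2b5*, *Ugt2b37*, *Ugt2a3*, *Ugt2b38*, *Sult1b1*, *Sult1d1* and *Sult1e1*, with 2 other coding genes before *Sult1b1*. *Ugt2b1* and *Ugt2b35* lay between -0.17 and -0.01 on the log2 scale in each genotype and passed in none. *Ugt2b36* was -0.29 in *Trp53(-/-)* (adjusted p = 0.185), -0.17 in *Trp53(+/-)* (adjusted p = 0.832) and -0.47 in *Trp53(+/+)* kidneys (adjusted p = 0.0209). *Ugt2a3*, which stands between 2 genes that fell in every genotype, was -0.70 in *Trp53(-/-)* (adjusted p = 0.00225), -0.26 in *Trp53(+/-)* (adjusted p = 0.601) and -0.42 in *Trp53(+/+)* kidneys (adjusted p = 0.0669). *Ugt2b1*, *Ugt2b35*, *Ugt2b36* and *Ugt2a3* were dim, with mean signals under 5, so a fall in them would be harder to measure. *Sult1e1*, the estrogen sulfotransferase, was dim too and passed in no genotype. Next to *Gstt2* on chromosome 10, *Gstt1* was 0.14, 0.19 and 0.29 in *Trp53(-/-)*, *Trp53(+/-)* and *Trp53(+/+)* kidneys and passed only in the last (adjusted p = 0.0262), and *Gstt3* and the dim *Gstt4* passed in none.

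**Figure D3:**
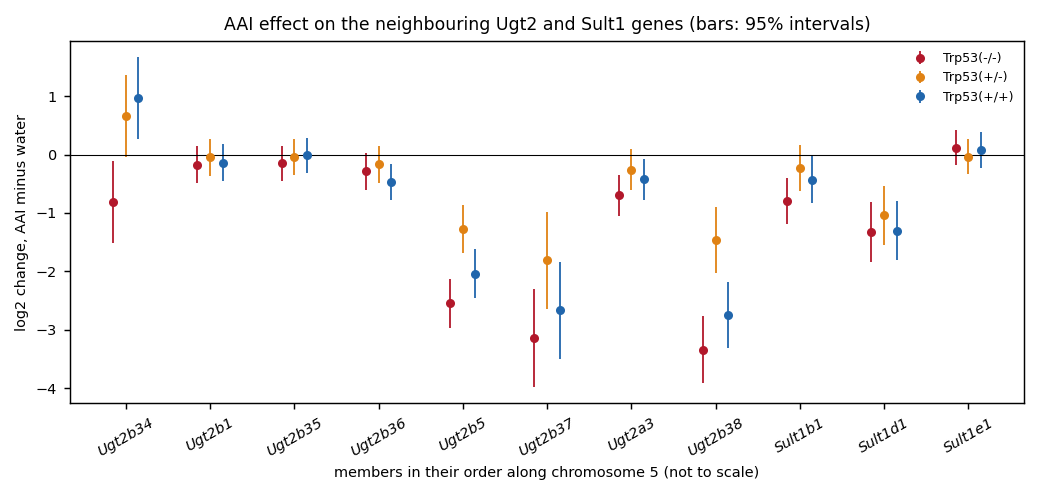
Log2 change with AAI of the 11 members on chromosome 5 in their order along the chromosome, which is not to scale, in *Trp53(-/-)*, *Trp53(+/-)* and *Trp53(+/+)* kidneys, with bars for 95% intervals. *Ugt2b5*, *Ugt2b37*, *Ugt2b38* and *Sult1d1* lie below 0 in each genotype, *Ugt2b1*, *Ugt2b35* and *Sult1e1* lie near 0, and *Ugt2b34* lies above 0 in *Trp53(+/+)* and below it in *Trp53(-/-)* kidneys.

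*Ugt2b34*, at the end of that cluster, differed from its neighbours. It had 4.80, 4.05, 3.82, 5.899 and 4.88 in *Trp53(-/-)* AAI kidneys, against 5.35, 5.48, 5.19, 5.62 and 5.84 in controls. *Trp53(+/-)* arrays read 6.04, 6.25, 5.43, 6.10 and 5.96 with AAI, against 5.53, 5.44, 5.38, 5.17 and 4.92 with water. *Trp53(+/+)* arrays read 5.86, 5.63, 5.83, 4.69 and 6.07 with AAI, against 6.10, 4.62, 5.05, 3.32 and 4.17 with water. All 3 pairs of groups overlapped, through 1 AAI array in *Trp53(-/-)*, through 1 in *Trp53(+/-)* and through AAI replicate 4 and control replicate 1 in *Trp53(+/+)* kidneys. It was -0.81 in *Trp53(-/-)* (SE 0.35, adjusted p = 0.0852), 0.67 in *Trp53(+/-)* (adjusted p = 0.366) and rose by 0.97 in *Trp53(+/+)* kidneys (adjusted p = 0.0353). Without *Trp53(+/+)* water replicate 1 it fell in *Trp53(-/-)* kidneys (adjusted p = 0.0425), rose by 1.33 in *Trp53(+/+)* kidneys (adjusted p = 0.00158), and the difference between these 2 effects was -2.14 (adjusted p = 0.0275), against -1.77 with all arrays (adjusted p = 0.254). With *Trp53(+/+)* AAI replicate 1 left out as well, that difference did not pass.

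*Gsta2*, an alpha class enzyme that reduces lipid peroxides and is known as a target of the factor Nrf2, showed a similar pattern. It had 9.78, 9.51, 9.23, 10.34 and 10.08 in *Trp53(-/-)* AAI kidneys, against 10.05, 10.57, 10.76, 10.22 and 11.10 in controls. The *Trp53(+/-)* groups measured 10.94, 11.18, 11.27, 11.13 and 11.08 with AAI, against 11.21, 10.21, 10.60, 11.10 and 10.90 with water. The *Trp53(+/+)* groups measured 11.13, 10.81, 10.80, 10.56 and 11.10 with AAI, against 11.67, 10.06, 10.15, 10.08 and 10.05 with water. Apart from replicate 1, all *Trp53(+/+)* controls lay below all AAI arrays of that genotype. With all arrays it fell in *Trp53(-/-)* kidneys by 0.75 on the log2 scale (SE 0.25, adjusted p = 0.0218) and was 0.32 in *Trp53(+/-)* (adjusted p = 0.729) and 0.48 in *Trp53(+/+)* kidneys (adjusted p = 0.157). Without replicate 1 it rose by 0.80 in *Trp53(+/+)* kidneys (adjusted p = 0.00292), and the effect of *Trp53(-/-)* minus that of *Trp53(+/+)* kidneys was -1.55 (adjusted p = 0.0071), against -1.23 with all arrays (adjusted p = 0.272). *Gsta2* and *Ugt2b34* deviated together within groups (r = 0.66 over the 30 arrays, given as a description), as did *Gsta4* and *Gsta2* (r = 0.70). Both values rest in part on *Trp53(+/+)* water replicate 1. It read 11.67 for *Gsta2*, 6.10 for *Ugt2b34* and 9.82 for *Gsta4*, against group means of 10.40, 4.65 and 8.59. No r was computed without it.

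**Figure D4:**
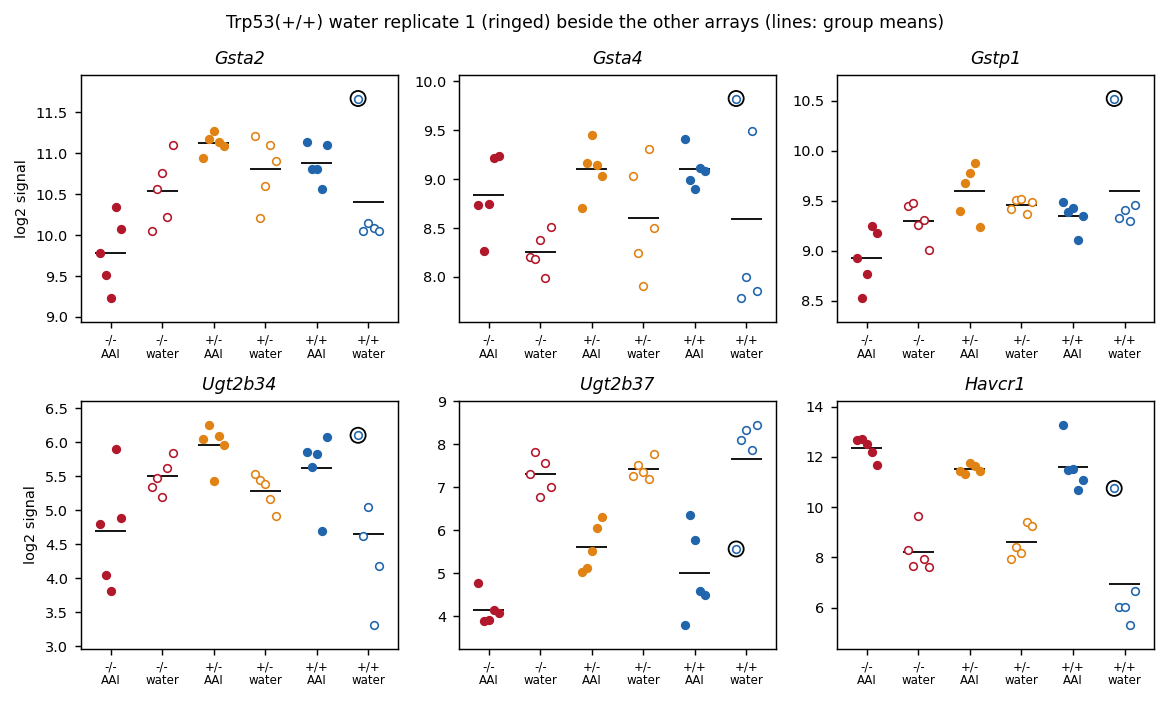
Log2 signal of 5 members and of the injury gene *Havcr1* in each array, filled for AAI and open for water, with lines at group means (n = 5) and *Trp53(+/+)* water replicate 1 ringed. The ringed array is at 11.67 for *Gsta2* and 10.52 for *Gstp1*, above the other 4 controls, and at 5.57 for *Ugt2b37*, below them.

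Among the other *Gst* genes, a few rose or fell by less than 2-fold. *Gstm2*, a mu class enzyme, had 7.57, 7.70, 7.81, 8.30 and 7.61 in *Trp53(-/-)* AAI kidneys, against 7.04, 7.30, 6.78, 6.82 and 6.74 in controls. Signals in *Trp53(+/+)* kidneys were 7.84, 7.52, 7.51, 8.45 and 7.60 with AAI, against 7.68, 7.10, 6.76, 6.80 and 7.32 with water. The *Trp53(-/-)* groups were separate and the *Trp53(+/+)* groups overlapped through control replicate 1. It rose 1.82-fold in *Trp53(-/-)* (adjusted p = 0.000225) and 1.57-fold in *Trp53(+/+)* kidneys (adjusted p = 0.00421) and was 1.18-fold higher in *Trp53(+/-)* AAI kidneys (adjusted p = 0.674).

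*Gsto1*, an omega class enzyme that reduces dehydroascorbate, had 7.38, 7.43, 7.32, 8.08 and 7.28 in *Trp53(-/-)* AAI kidneys, against 6.34, 6.90, 6.83, 6.55 and 7.08 in controls, with no overlap. It rose 1.69-fold there (adjusted p = 0.00593) and was 0.02 in *Trp53(+/-)* (adjusted p = 0.997) and 0.31 in *Trp53(+/+)* kidneys (adjusted p = 0.291). *Gsta3*, another alpha class gene, fell 1.59-fold in *Trp53(-/-)* kidneys (adjusted p = 0.00235) and passed in no other genotype. *Gstm5* fell 1.57-fold in *Trp53(-/-)* (adjusted p = 0.000156) and 1.40-fold in *Trp53(+/+)* kidneys (adjusted p = 0.0041), and *Gstm4* fell 1.43-fold in *Trp53(+/+)* kidneys alone (adjusted p = 0.00904), at -0.24 in *Trp53(-/-)* kidneys (adjusted p = 0.268), a difference between genotypes that did not pass (0.28, adjusted p = 0.807). *Gsta4*, whose enzyme acts on the lipid peroxidation product hydroxynonenal, was 0.59, 0.50 and 0.51 in *Trp53(-/-)*, *Trp53(+/-)* and *Trp53(+/+)* kidneys and passed in none, with adjusted p values of 0.152, 0.485 and 0.216. Without *Trp53(+/+)* water replicate 1 *Gsta4* rose by 0.82 in *Trp53(+/+)* kidneys (adjusted p = 0.0215).

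The pi class genes *Gstp1*, *Gstp2* and *Gstp3* passed in no genotype with all arrays. *Gstp1* was -0.37, 0.13 and -0.25 in *Trp53(-/-)*, *Trp53(+/-)* and *Trp53(+/+)* kidneys, and without *Trp53(+/+)* water replicate 1 it and *Gstp2* passed as lower in *Trp53(-/-)* AAI kidneys (adjusted p = 0.0269 for *Gstp1* and 0.0152 for *Gstp2*). *Gstp1* and *Gstp2* are near-identical genes that deviated together within groups (r = 0.93), and their probes may share signal. That r rests in part on the same water array, at 10.52 for *Gstp1* and 10.30 for *Gstp2*.

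Of the 19 sulfotransferase genes, 2 fell with AAI in *Trp53(-/-)* kidneys, 1 fell in *Trp53(+/-)* kidneys, 2 fell in *Trp53(+/+)* kidneys, and 0 rose. These are 2, 1 and 2 of 19, near what the shares of fallen genes overall (10.9%, 3.81% and 12%) would give. Besides *Sult1d1* these were *Sult1b1*, a thyroid hormone and phenol sulfotransferase, which fell 1.73-fold in *Trp53(-/-)* kidneys (adjusted p = 0.0022), and the little studied *Sult6b2*, which fell 1.33-fold in *Trp53(+/+)* kidneys (adjusted p = 0.0149). None of the 9 *Sult2* genes, whose enzymes sulfate hydroxysteroids and bile acids, none of the 2 *Sult3* genes, and neither *Sult4a1*, *Sult5a1* nor *Sult1c1* passed in any genotype. All of these except *Sult2a1* and *Sult5a1* were dim, with mean signals under 5, so a change in them may have gone unmeasured. That also limits a comparison with the *Ugt* and *Gst* genes. The largest *Sult2* change was -0.26, in *Sult2a6* in *Trp53(-/-)* kidneys (adjusted p = 0.337). By comparison 6, 5 and 6 of the 10 *Ugt* genes and 6, 3 and 5 of the 21 *Gst* genes fell in *Trp53(-/-)*, *Trp53(+/-)* and *Trp53(+/+)* kidneys, to be read against the same shares.

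The AAI effect was then compared between genotypes. Between *Trp53(-/-)* and *Trp53(+/+)* kidneys it differed in 0 of the 50 members by limma (3 at an unadjusted p under 0.05), where 0.104% of all genes differed (7.61% at the unadjusted p). Leaving out *Trp53(+/+)* water replicate 1 made this 2 members, *Gsta2* and *Ugt2b34*, and only *Gsta2* passed with *Trp53(+/+)* AAI replicate 1 left out as well. For the 5 *Ugt* genes that fell in every genotype the difference ranged between -0.59 for *Ugt2b38* (95% interval -1.39 to 0.22) and 0.11 for *Ugt3a2* (95% interval -0.53 to 0.75). The first of these intervals includes a difference of 2-fold.

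Between *Trp53(-/-)* and *Trp53(+/-)* kidneys the effect differed in 4 members, where 2.58% of all genes differed, and all 4 fell further in *Trp53(-/-)* kidneys. The difference was -1.87 for *Ugt2b38* (SE 0.39, adjusted p = 0.00655), -1.43 for *Ugt3a1* (SE 0.35, adjusted p = 0.0198), -1.38 for *Ugt3a2* (SE 0.32, adjusted p = 0.0122) and -1.27 for *Ugt2b5* (SE 0.29, adjusted p = 0.0114). Between *Trp53(+/-)* and *Trp53(+/+)* kidneys it differed in 3 members, where 1.84% of all genes differed. These were *Ugt3a2* (1.49, SE 0.32, adjusted p = 0.00878), *Ugt3a1* (1.36, SE 0.35, adjusted p = 0.0343) and *Gstk1* (0.80, SE 0.20, adjusted p = 0.029), and all fell less in *Trp53(+/-)* kidneys. With a batch term, fitted under 5 assignments of the array whose batch is not labelled, 3 of these 7 differences passed under no assignment and 4 (*Ugt3a2* in both comparisons, *Ugt2b38* and *Ugt2b5*) passed under 1 of the 5. The log2 differences then varied widely with the assignment. Between *Trp53(-/-)* and *Trp53(+/-)* they ran from -3.17 to -0.57 for *Ugt2b38* (median -2.08) and -2.31 to -0.44 for *Ugt3a2* (median -1.71). For *Ugt3a1* they ran from -2.10 to -0.37 (median -1.61) and for *Ugt2b5* from -1.94 to -0.73 (median -0.94). Between *Trp53(+/-)* and *Trp53(+/+)* they ran from 0.37 to 2.61 for *Ugt3a2* (median 1.89) and 0.09 to 2.16 for *Ugt3a1* (median 1.57). For *Gstk1* they ran from 0.17 to 1.20 (median 1.03). No sign changed, but the batch term rested on 1 array against the rest of its group. These values therefore cannot tell batch from genotype. Without *Trp53(+/+)* water replicate 1, *Gsta2* also passed between *Trp53(-/-)* and *Trp53(+/-)* (-1.07, adjusted p = 0.0235) and *Ugt2b38* between *Trp53(+/-)* and *Trp53(+/+)* (1.52, adjusted p = 0.0211). The count between *Trp53(+/-)* and *Trp53(+/+)* was 1 without any of 8 single arrays, namely *Trp53(+/-)* AAI replicate 1 or 3, *Trp53(+/-)* water replicate 1 or 5, *Trp53(+/+)* AAI replicate 1 or *Trp53(+/+)* water replicate 3, 4 or 5. The fall of the 9 members in *Trp53(+/-)* kidneys did not pass with a batch term either, where 0 passed (median, 0 to 9 over the assignments).

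In control kidneys few members passed between genotypes. In comparisons with *Trp53(+/+)* controls, genotype and batch cannot be told apart. Between *Trp53(-/-)* and *Trp53(+/+)* controls 1 member passed (13 at an unadjusted limma p under 0.05), where 0.641% of all genes did (14.8% at the unadjusted p). It was the dim *Sult3a2*, an amine sulfotransferase gene in mice, with 3.27, 3.19, 3.39, 3.28 and 3.26 in *Trp53(-/-)* controls, against 3.11, 2.48, 2.76, 2.45 and 2.53 in *Trp53(+/+)* controls. The groups did not overlap, and the gene was 1.53-fold higher in *Trp53(-/-)* controls (adjusted p = 0.0372). That call was lost without any 1 of 9 of the 10 arrays compared. It remained without *Trp53(+/+)* water replicate 1, where *Ugt2b34* (1.21, adjusted p = 0.0449) and *Ugt3a1* (-0.93, adjusted p = 0.029) passed as well. Between *Trp53(+/-)* and *Trp53(+/+)* controls 0 members passed in limma (2 at an unadjusted p under 0.05), where 0.235% of all genes did (11.2% at the unadjusted p), and *Sult6b2* passed without that array (-0.56, adjusted p = 0.0428). Between *Trp53(-/-)* and *Trp53(+/-)* controls, which shared a batch, 0 members passed (4 at an unadjusted p under 0.05), where 0% of all genes did (4.57% at the unadjusted p).

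Markers of the proximal tubule fell with AAI, as did the 9 members that fell in all 3 genotypes. Of the 50 members, 29 passed in no genotype. Of 23 measured proximal tubule genes 23, 19 and 22 fell in *Trp53(-/-)*, *Trp53(+/-)* and *Trp53(+/+)* kidneys, with median log2 changes of -2.45, -1.11 and -2.11. Of all genes 10.9%, 3.81% and 12% fell. Their mean level was 7.33 to 8.03 in *Trp53(-/-)* AAI arrays, against 10.03 to 10.34 in controls, 8.82 to 9.51 in *Trp53(+/-)* AAI arrays, against 10.13 to 10.31, and 7.58 to 8.84 in *Trp53(+/+)* AAI arrays, against 10.17 to 10.68. All 11 tubular injury genes rose in each genotype. Genes of some other cell types rose too. In *Trp53(-/-)*, *Trp53(+/-)* and *Trp53(+/+)* kidneys these were 8, 6 and 8 of 8 fibroblast, 8, 0 and 8 of 8 endothelial and 7, 4 and 8 of 9 macrophage genes. In the same order 2, 0 and 4 of 4 podocyte genes rose, and 4, 1 and 4 of 10 collecting duct genes rose while 1, 0 and 0 fell. Over all genes 15.5%, 3.53% and 15.2% rose. Thick ascending limb genes (6) had 2, 0 and 2 risen and 1 fallen in each. Distal tubule genes (6) had 0 risen and 1 fallen in each. Neutrophil genes (6) had 2, 0 and 0 risen and 1, 0 and 0 fallen. None of 6 lymphocyte or 7 urothelial genes passed in any genotype. In whole kidney RNA, fewer tubule cells and less RNA per cell cannot be told apart, and the part of these marker changes in the results was not tested. Of 10 hepatocyte genes 3, 0 and 3 fell and 1 rose in each genotype, to be read against the same shares of all genes.

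Most genes of a cofactor supply list fell along with the enzymes in *Trp53(-/-)* and *Trp53(+/+)* kidneys. Of 13 measured genes of this list, for glutathione, UDP-glucuronic acid and PAPS, 8 fell and 1 rose in *Trp53(-/-)*, 5 fell and 1 rose in *Trp53(+/-)*, and 7 fell and 1 rose in *Trp53(+/+)* kidneys (median -0.43, -0.32 and -0.49). Over all genes 10.9%, 3.81% and 12% fell and 15.5%, 3.53% and 15.2% rose in the same order. *Papss2*, which makes PAPS, fell in each (log2 -2.00 in *Trp53(-/-)*, -1.11 in *Trp53(+/-)*, -1.99 in *Trp53(+/+)*), and so did *Gss*, glutathione synthetase (log2 -1.57 for *Trp53(-/-)*, -0.57 for *Trp53(+/-)*, -1.46 for *Trp53(+/+)*). *Gclm*, the modifier subunit of the enzyme that starts glutathione synthesis, fell as well (log2 -1.25 for *Trp53(-/-)*, -0.52 for *Trp53(+/-)*, -0.89 for *Trp53(+/+)*). *Gclc*, its catalytic subunit, rose by 0.92 in *Trp53(-/-)* kidneys (adjusted p = 0.000761) and was 0.14 in *Trp53(+/-)* (adjusted p = 0.956) and 0.34 in *Trp53(+/+)* (adjusted p = 0.239). *Slc7a11*, the cystine carrier that feeds the same pathway, was 0.41 in *Trp53(-/-)* kidneys (adjusted p = 0.28) and rose by 0.83 in *Trp53(+/-)* (adjusted p = 0.0457) and 1.52 in *Trp53(+/+)* kidneys. The effects on *Papss2* and *Gss* differed between *Trp53(-/-)* and *Trp53(+/-)* kidneys (-0.89 and -0.999, adjusted p = 0.02 and 0.00196) and between *Trp53(+/-)* and *Trp53(+/+)* kidneys (0.88 and 0.89, adjusted p = 0.0268 and 0.00711). Neither passed between *Trp53(-/-)* and *Trp53(+/+)* kidneys (-0.01 and -0.11, adjusted p = 0.997 and 0.934).

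Other conjugating and downstream enzymes moved in both directions. Of 29 measured, 17 fell and 3 rose in *Trp53(-/-)*, 13 fell and 2 rose in *Trp53(+/-)*, and 17 fell and 4 rose in *Trp53(+/+)* kidneys (median -0.96, -0.55 and -0.82). The shares of all genes were 10.9%, 3.81% and 12% fallen and 15.5%, 3.53% and 15.2% risen. *Inmt*, an amine N-methyltransferase, fell in each (log2 -3.84 for *Trp53(-/-)*, -2.43 for *Trp53(+/-)*, -3.91 for *Trp53(+/+)*). *Acsm3* and *Acsm1*, of the acyl-CoA synthetases that prepare acids for glycine conjugation, also fell, and so did *Glyat*, the glycine transferase. Their log2 changes for *Trp53(-/-)*, *Trp53(+/-)* and *Trp53(+/+)* were -2.98, -1.42 and -3.17 for *Acsm3*, -2.87, -1.36 and -2.55 for *Acsm1* and -2.66, -0.78 and -1.89 for *Glyat*. Against this *Ephx1*, microsomal epoxide hydrolase, was 0.37 in *Trp53(-/-)* kidneys (adjusted p = 0.313) and rose by 1.46 in *Trp53(+/-)* (adjusted p = 0.000209) and 2.24 in *Trp53(+/+)* kidneys (adjusted p = 1.34e-08), and its effect differed between *Trp53(-/-)* and *Trp53(+/+)* kidneys by -1.87 (adjusted p = 0.0104). The 3 genes that rose for *Trp53(-/-)* were *Nnmt*, *Mgst1* and *Hpgds*. *Nnmt* rose with each genotype (log2 1.79 for *Trp53(-/-)*, 0.93 for *Trp53(+/-)*, 1.63 for *Trp53(+/+)*). *Mgst1* (log2 1.31 and 1.14) and *Hpgds* (log2 1.10 and 0.93) rose for *Trp53(-/-)* and *Trp53(+/+)* and did not pass for *Trp53(+/-)*. Between *Trp53(-/-)* and *Trp53(+/+)* none of these 3 effects differed in limma (adjusted p = 0.933, 0.949 and 0.92). *Ephx1* and these 3 genes were chosen for mention after their values were seen.

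Of 21 measured regulators of these enzymes, 5, 3 and 5 fell and 3, 1 and 3 rose in *Trp53(-/-)*, *Trp53(+/-)* and *Trp53(+/+)* kidneys. Of all genes 10.9%, 3.81% and 12% fell and 15.5%, 3.53% and 15.2% rose, and the risen regulators were near those shares. *Hnf4a*, a nuclear receptor of tubule and liver, fell in each (log2 -2.27 for *Trp53(-/-)*, -0.97 for *Trp53(+/-)*, -1.88 for *Trp53(+/+)*), as did *Nr1h4*, the bile acid receptor FXR (log2 -1.81 for *Trp53(-/-)*, -0.92 for *Trp53(+/-)*, -1.29 for *Trp53(+/+)*). *Ppara*, the fatty acid receptor, fell too (log2 -1.48 for *Trp53(-/-)*, -0.87 for *Trp53(+/-)*, -1.03 for *Trp53(+/+)*). *Maff*, a small Maf partner of Nrf2, rose by 1.57 for *Trp53(-/-)*, 0.88 for *Trp53(+/-)* and 1.49 for *Trp53(+/+)*. Of 14 measured Nrf2 targets outside the members, 4, 4 and 7 rose and 3, 2 and 2 fell in the same order of genotypes. These counts are to be read against the same shares of all genes. *Me1*, malic enzyme, fell in each (log2 -1.61 for *Trp53(-/-)*, -0.86 for *Trp53(+/-)*, -1.895 for *Trp53(+/+)*), while *Cbr3*, a carbonyl reductase, was 0.84 for *Trp53(-/-)* (adjusted p = 0.0812), 0.70 for *Trp53(+/-)* (adjusted p = 0.351) and rose by 1.14 for *Trp53(+/+)* (adjusted p = 0.0149). *Trp53(+/+)* water replicate 1 had 6.88 for *Cbr3*, against 4.11 to 4.43 in the other 4 controls, and without it *Cbr3* rose by 1.66 for *Trp53(+/+)* (adjusted p = 7.49e-06) and by 0.84 for *Trp53(-/-)* (adjusted p = 0.00888).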

How the data were processed

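The authors hybridised amplified cDNA of 30 kidneys to Clariom S mouse arrays and made the deposited values with Robust Multi-array Average (RMA) in the Transcriptome Analysis Console, for which no version is given in the sources used here. RMA subtracts background, normalizes between arrays and returns 1 log2 value per transcript cluster, so the deposited log2 values, which ran from 1.92 to 14.04, were used as they stood. Of 22206 clusters 19572 have a symbol, and the brightest was kept where clusters shared one, which left 22139 to test. The number of arrays, 5 per group, limits the precision, and the labels name 1 mouse per array.

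All 30 arrays entered 1 fit of 6 group means without a batch term (R 4.3.3, limma 3.58.1, statmod 1.5.0, 24 residual degrees of freedom, prior 7.21). Contrasts set AAI against water per genotype and took differences of these effects and of genotypes within controls. P-values of genes are two-sided, from limma, with Benjamini-Hochberg adjustment over all genes. The study's methods name an analysis of variance with batch effects removed. A plain equal-variance test of 2 groups without a batch term, which gives the same p for 2 groups as that analysis without the removal, and a fit with a batch term are alternatives, and the fit was tested on simulated data. Members and lists were chosen with earlier results of these data known.

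Members named are those that passed with 2-fold in any AAI contrast, up to 6 per interaction or control contrast, and the largest change in each remaining family, with up to 4 genes per pathway list. Other members that passed in some genotype, *Gsta4*, *Ugt2b34* and the neighbours were named after their values were seen. Promoter windows and gene order came from RefSeq (GRCm38.p6), with windows for 43 of the 50 members, aligned with Biopython 1.88. The replicate numbers do not pair arrays across groups (median correlation -0.006 over 75 same-numbered pairs).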

Additional observations from a re-analysis of the deposited data

Results flagged for a closer look

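Dixon's test marked 10 of the 114 combinations of a named member and a group as holding 1 array far from the other 4, where chance marks about 1 in 20. In *Trp53(+/+)* water replicate 1 these were *Gsta2* at 11.67, *Gstp1* at 10.52, *Ugt2b37* at 5.57, *Ugt2b38* at 10.56 and *Ugt3a1* at 7.86. The others were *Gstt2* at 7.03 and *Gsto1* at 8.08 in *Trp53(-/-)* AAI replicate 4, *Gstt2* at 6.52 in *Trp53(+/+)* AAI replicate 1, *Sult6b2* at 3.49 in *Trp53(+/+)* AAI replicate 2 and *Ugt3a2* at 11.30 in *Trp53(+/-)* water replicate 1.

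The AAI effect differed between genotypes, by a test of the difference itself in limma, in 7 cases. Between *Trp53(-/-)* and *Trp53(+/-)* kidneys the log2 difference was -1.27 for *Ugt2b5*, -1.87 for *Ugt2b38*, -1.43 for *Ugt3a1* and -1.38 for *Ugt3a2*. Between *Trp53(+/-)* and *Trp53(+/+)* kidneys it was 0.80 for *Gstk1*, 1.36 for *Ugt3a1* and 1.49 for *Ugt3a2*. In both comparisons the *Trp53(+/-)* AAI arrays lay in another batch than their controls, and this part of the difference cannot be told apart from genotype.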

How the results depend on the processing

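No value that passed the test changed direction under the alternatives run, with the batch term taken as its median over 5 assignments. Of 2953 values of named genes under these alternatives 2873 kept their side of the threshold, 71 of them with another sign and passing in neither, 59 no longer passed and 21 passed only there. Members that fell in *Trp53(-/-)* kidneys numbered 14, and 9 with a plain equal-variance test of the 2 groups at an unadjusted p under 0.05 with 2-fold or with 2-fold added to limma (13 to 17 with 1 array left out). Those that rose there numbered 2, and 0 under the same 2 settings (2 to 2 with 1 array left out). In *Trp53(+/-)* kidneys the fallen numbered 9, but 0 with a batch term (median, 0 to 9 over 5 assignments), and the risen 0, but 1 in a fit of the 10 arrays alone and 3 with *Trp53(+/+)* controls. In *Trp53(+/+)* kidneys the risen numbered 3, but 1 in a fit of the 10 arrays alone, 0 with the plain test and 2-fold, 1 with the plain test after Benjamini-Hochberg adjustment, 0 with 2-fold in limma, and 1 to 5 with 1 array left out, 1 without AAI replicate 1 or water replicate 5 and 5 without water replicate 1. Members whose AAI effect differed numbered 3 between *Trp53(+/-)* and *Trp53(+/+)* kidneys (1 to 4 with 1 array left out, 0 with a batch term, 0 to 2 over the assignments), 4 between *Trp53(-/-)* and *Trp53(+/-)* kidneys (3 to 6 with 1 array left out, 7 in a fit of those arrays alone, 7 with array weights, 0 with a batch term, 0 to 3 over the assignments) and 0 between *Trp53(-/-)* and *Trp53(+/+)* kidneys (0 to 2 with 1 array left out). In controls, 1 member differed between *Trp53(-/-)* and *Trp53(+/+)*, and 0 with dim clusters left out, arrays centred on medians, 2-fold added or a batch term (0 to 3 with 1 array left out), and 0 between *Trp53(+/-)* and *Trp53(+/+)* (0 to 1). An alternative chosen after seeing the data left out *Trp53(+/+)* water and AAI replicate 1 together. It gave 1 member, *Gsta2*, between *Trp53(-/-)* and *Trp53(+/+)* AAI effects, and in controls 2 between *Trp53(+/-)* and *Trp53(+/+)* and 3 between *Trp53(-/-)* and *Trp53(+/+)*. The cause of these changes was not tested. With the replicate number as a block, each count stayed as it was, for example 14 fallen members for *Trp53(-/-)*, 9 for *Trp53(+/-)* and 13 for *Trp53(+/+)*. Signal limits what can be said of the 22 dim members, where a change may go unmeasured.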
